A study of Homo sapiens with 9 samples.

Results

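The cytosolic ribosomal protein genes are 83 of the 61541 genes in the count tables of H69 cells, and their mRNAs made up 3.40% to 4.29% of all counts in each library. They were chosen by symbol: protein-coding genes named RPL or RPS with a number, with a closing A, X, L or L1 allowed, together with RPLP0, RPLP1 and RPLP2. Pseudogenes, Y-linked copies, kinases of ribosomal protein S6 and RPSA were left out, and RPL36AL is given beside the others without being counted. Of the 83 genes, 43 encode proteins of the large subunit, 30 proteins of the small subunit and 3 the lateral stalk, and 7 are copies whose symbol ends in L or L1. The filter on low counts was passed by 77 of them, among 15997 genes in all.

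The libraries came from H69, a line of human cholangiocytes, the epithelial cells of the bile duct, immortalised with SV40 large T antigen. There were 3 libraries of cells given acetazolamide, an inhibitor of carbonic anhydrases, at 10 µM, 3 of cells given laminin 511-E8, a piece of a basement membrane protein that binds integrins, at 0.25 µg/cm2, and 3 of control cells given the vehicle DMSO. All cells carried the genotype labelled as wild type, were confluent at the start and were harvested after 48 hours of treatment. The labels name 3 biological replicates a group, all of the same line, without saying how the cultures were kept apart. mRNA was captured by its poly(A) tail. Since all values are shares of a library, more mRNA of these genes cannot be told apart from less mRNA of the other genes.

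A ribosome is built from 2 subunits, the small one decoding the mRNA and the large one joining the amino acids. Its proteins are needed in nearly equal numbers, and their mRNAs are among the most abundant of dividing cells. Most of these mRNAs begin with a C followed by a run of pyrimidines, the terminal oligopyrimidine motif, through which the kinase mTOR and the RNA-binding protein LARP1 control their translation. Poly(A) RNA sequencing does not measure translation.

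The starts of 10 of these mRNAs are shown, from the stalk genes, from pairs of a gene and its copy, and from RPS18. Among them the copies RPL26L1 and RPS27L lack the motif. RefSeq lists a promoter for 66 of the 83 genes on GRCh38.p14. Each line below holds 30 bases of the strand of the gene, 12 before the annotated start and 18 from it on, with the unbroken run of C and T that opens the transcript in capitals.
RPLP0: cgggcgcgaggcCCTTCTCTCgccaggcgt
RPLP1: taggcgcgagagCCCCTTTCCTCagctgcc
RPLP2: cgtcggcgccttCCTTTTCCTCCCTgtcgc
RPL22: ttcgctcacctcCCTTTCTaactccgctgc
RPL22L1: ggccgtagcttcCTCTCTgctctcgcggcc
RPL26: cagcgtgtagttCTCTTCCCTTTTgcggcc
RPL26L1: cttccaggggtcggcgaacgaaacgcggag
RPS27: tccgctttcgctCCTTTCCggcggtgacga
RPS27L: ttgatgccgagcgcagatcgcttgcagctt
RPS18: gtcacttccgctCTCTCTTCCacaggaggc

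In RPLP0 the window is chr12:120201094-120201123 on the minus strand, in RPL22 it is chr1:6199578-6199607 on the minus strand and in RPS18 it is chr6:33272063-33272092 on the plus strand. The run was 9 bases long in RPLP0, 11 in RPLP1, 13 in RPLP2 and 7 in RPL22. Over all 66 genes, 46 (69.7%) had at least 1 listed start with a C followed by at least 4 further pyrimidines, read at the start base on the strand of the gene only. The same held for 6.79% of 10655 other tested genes with a listed start and for 4.07% of all 35116 starts in the table. Of the copies, 1 of 5 had such a start, RPL22L1, against 45 of 61 (73.8%) among the other ribosomal protein genes. A listed start is an annotation, and the starts used in H69 cells were not measured here.

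Total counts ranged from 12529867 to 39518899 per library, and mitochondrial transcripts held 9.43% to 16.2% of them, the highest share being in control library 2. The cholangiocyte markers KRT7 and KRT19 averaged 1519 and 697 CPM (counts scaled to the library total) in acetazolamide libraries, 1270 and 450.2 CPM in laminin 511-E8 libraries, and 1336 and 604 CPM in control libraries. All 5 cholangiocyte markers had fitted log2 fold changes below 0 in laminin 511-E8 against control, with a median of -0.32, and against acetazolamide, with a median of -0.25. By edgeR 0 of them passed, and with the GC trend of the libraries removed KRT19 passed in both comparisons, lower with laminin 511-E8. The part of this in the results on ribosomal protein genes was not tested. EPCAM and CDH1 were detected in every library and SOX9 was low, at 3.41 to 4.77 CPM in the group means. Of 4 hepatocyte markers, APOA1 and TTR had 0 counts in every library, ALB had 1 count in all and ASGR1 stayed at 0.0821 to 0.122 CPM in the group means. Of 3 endothelial and 3 leukocyte markers, CDH5 and CD3E had 0 counts and the highest group mean was 1.16 CPM, for PECAM1. Of 4 mesenchymal markers COL1A1 stood at 43.2 to 47.2 CPM in the group means, COL1A2 at 0.0242 to 0.0558 CPM and the others between these. The libraries also differed in how the level of a gene depended on its GC content, which is described with the genes it touches.

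Levels of different genes were compared as TPM, a share of the library in which counts are first divided by transcript length. The tested ribosomal protein genes had a median of 1101 TPM in acetazolamide libraries, 1057 TPM in laminin 511-E8 libraries and 992 TPM in control libraries. The median of all tested genes was 13.0 TPM, 12.4 TPM and 12.5 TPM in the same order of groups. In control libraries 71 of the 77 genes lay in the top 10% of tested genes. The lowest was at the 48.8th percentile.

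The most abundant mRNA was that of RPS24, a protein of the small subunit, at 2900 ± 195 TPM in acetazolamide libraries, 2954 ± 15.4 TPM in laminin 511-E8 libraries and 2627 ± 297 TPM in control libraries (SD, n = 3 each). RPL23 followed at 2612 ± 68.6, 2687 ± 58.8 and 2354 ± 135 TPM in the same order of groups. RPL12, a protein at the base of the stalk, averaged 2347 ± 72.8 TPM in control libraries, and RPL19 and RPS6 averaged 2333 ± 145 and 2149 ± 195 TPM there. These 5 control means did not differ beyond their spread from the neighbours in the order. The order also depended on the transcript taken for the length. With the longest transcript of each gene, 2 of these 5 stayed among the 5 highest, RPL12 and RPL19, whereas the 5 lowest genes were the same 5.

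RPS6, the substrate of the S6 kinases, had 1156, 1095 and 1361 CPM in acetazolamide libraries, 1287, 1280 and 1231 CPM in laminin 511-E8 libraries, and 1250, 1134 and 1069 CPM in control libraries. RPS24 had 1016, 1070 and 961 CPM in acetazolamide libraries, 1043, 1046 and 1035 CPM in laminin 511-E8 libraries, and 941, 1053 and 777 CPM in control libraries. In both genes the groups overlapped. RPL23 had 984, 966 and 948 CPM in acetazolamide libraries, 995, 1031 and 972 CPM in laminin 511-E8 libraries, and 897, 928 and 789 CPM in control libraries. RPL12 had 801, 673 and 810 CPM in acetazolamide libraries, 742, 847 and 704 CPM in laminin 511-E8 libraries, and 669, 761 and 684 CPM in control libraries. In CPM all treated libraries lay above the control libraries for RPL23, and the groups overlapped for RPL12. RPL19, a protein of the large subunit, had 1171, 1133 and 1286 CPM in acetazolamide libraries, 1145, 1281 and 1073 CPM in laminin 511-E8 libraries, and 1083, 1023 and 992 CPM in control libraries. All acetazolamide libraries lay above all control libraries for RPL19, by a fitted log2 fold change of 0.15 ± 0.09 (SE, unadjusted p = 0.14, edgeR quasi-likelihood test).

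Of the 83 genes, 10 stayed under 20 CPM in the control mean, a limit chosen after their values were seen. Among them were RPS9, RPS10, RPS18, RPS25, RPL7A, RPL17, RPL36A and the copies RPL3L and RPL10L. RPS25, a protein of the small subunit, had 1 count in acetazolamide library 2, 1 count in control library 1 and 0 counts in the other 7. RPS18 had 7, 2 and 2 counts in acetazolamide libraries, 0, 13 and 5 counts in laminin 511-E8 libraries, and 9, 3 and 3 counts in control libraries. RPS9 had 6, 4 and 3 counts in acetazolamide libraries, 0, 8 and 7 counts in laminin 511-E8 libraries, and 3, 3 and 3 counts in control libraries. The groups overlapped in these 3 genes. A count of 0 allows up to 3 counts, which is 0.0759 CPM in the deepest library and 0.239 CPM in the shallowest, for counting error only.

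These proteins are parts of every ribosome in textbook accounts, so the counts of neighbouring and related genes are given beside theirs. Pseudogenes named after RPS18 held 99.9% of the counts of RPS18 and its pseudogenes together, those of RPL7A 96.3%, those of RPL17 90.9% and those of RPL36A 84.2%. For RPS10 the share was 48.1%. The pseudogene RPS18P12 on chromosome 17 alone held 31055 counts over the 9 libraries and RPL7AP6 on chromosome 14 held 29931. Over all 83 genes the 1524 pseudogenes held 6.62% of the joint counts, and for 22 genes the share was at least 10%. The share of a gene and that of its pseudogenes are therefore uncertain for these genes, since the sources used here do not give how reads matching several places were counted.

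For RPS9, RPS18, RPS25 and RPL7A the protein-coding genes next to them were also nearly without counts. All 6 nearest named neighbours of RPL7A had 0 to 2 counts over 9 libraries, among them SURF1, needed for cytochrome c oxidase assembly, with 1 count and SURF4, a cargo receptor, with 2. The neighbours of RPS18 had 0 to 12 counts, among them VPS52, a subunit of a vesicle tethering complex, with 4 counts and WDR46, a nucleolar protein, with 1. Those of RPS9 had 0 to 75 counts and those of RPS25 0 to 17. Over all members the median was 1 of 6 neighbours under 100 counts, and RPS19 and RPL23, which were abundant, also had at least 5 such neighbours.

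RPL17, RPS10 and RPL36A overlapped exons of another gene on the same strand, as did 9 of the 73 genes at 20 CPM or more. In these 3 genes the overlapping gene was a readthrough transcript named after the gene and its neighbour. Their neighbours ranged from 19 counts (BTK) to 36423 counts (HNRNPH2) for RPL36A, from 1 (SPDEF) to 32733 (ILRUN) for RPS10, and from 44 (LIPG) to 12293 (DYM) for RPL17. What part overlap, pseudogenes or locus have in these low counts was not tested.

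The copies of ribosomal protein genes had levels from absent to above those of the gene they resemble. RPL22L1 made up 83.5% ± 0.32 of the TPM of the pair with RPL22 in acetazolamide libraries, 84.0% ± 0.58 in laminin 511-E8 libraries and 81.1% ± 1.66 in control libraries (SD, n = 3 each). It was the only copy above its partner among the 7, and RPL36AL, given beside them, made up 86.9% to 93.0% of its pair with RPL36A over the 9 libraries, where the counts of RPL36A are uncertain as described. RPL26L1 took 17.3%, 17.2% and 19.3% of its pair, RPS27L 7.58%, 6.66% and 7.30%, RPL7L1 7.23%, 7.34% and 7.28%, and RPL39L 4.72%, 4.36% and 5.01%, each in the order acetazolamide, laminin 511-E8 and control. With the longest transcripts the share over all libraries was 74.7% for RPL22L1, 25.9% for RPL26L1 and 0.829% for RPS27L, so the shares depend on the transcript taken. Pseudogene counts are left out of these shares. Pseudogenes named after RPL26 held 21.4% of the joint counts, those of RPL7 13.7% and those of RPL39 10.1%. RPL26L1 and RPL39L had 0 pseudogene counts. What this does to the shares was not tested. RPL3L, which in mammals is made mainly in skeletal muscle and heart, had 0, 1 and 0 counts in acetazolamide libraries, 1, 0 and 0 counts in laminin 511-E8 libraries, and 3, 0 and 0 counts in control libraries. RPL10L, which is known from the testis, had 3 counts in control library 1 and 0 counts in the other 8.

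RPS27L, a target of the tumour suppressor p53, had 49.0, 60.4 and 41.8 CPM in acetazolamide libraries, 52.7, 45.8 and 48.8 CPM in laminin 511-E8 libraries, and 56.7, 43.5 and 50.0 CPM in control libraries. Its partner RPS27 had 355, 262 and 380 CPM in acetazolamide libraries, 353, 395 and 330 CPM in laminin 511-E8 libraries, and 329, 356 and 308 CPM in control libraries. The copy was highest in acetazolamide library 2, where the partner was lowest. RPL26L1 had 45.1, 38.6 and 46.7 CPM in acetazolamide libraries, 41.6, 47.6 and 41.8 CPM in laminin 511-E8 libraries, and 41.9, 43.9 and 41.2 CPM in control libraries. RPL26 had 148, 222 and 169 CPM in acetazolamide libraries, 183, 170 and 180 CPM in laminin 511-E8 libraries, and 168, 192 and 107 CPM in control libraries. The groups overlapped in both genes of each of these pairs. RPL7L1 had 258, 227 and 263 CPM in acetazolamide libraries, 262, 267 and 266 CPM in laminin 511-E8 libraries, and 247, 229 and 274 CPM in control libraries. RPL7 had 1036, 872 and 904 CPM in acetazolamide libraries, 1020, 978 and 934 CPM in laminin 511-E8 libraries, and 946, 928 and 914 CPM in control libraries. These also overlapped between treated and control libraries. RPL39L had 38.5, 39.9 and 34.7 CPM in acetazolamide libraries, 36.1, 35.0 and 31.8 CPM in laminin 511-E8 libraries, and 39.7, 33.2 and 31.2 CPM in control libraries. RPL39 had 434, 399 and 389 CPM in acetazolamide libraries, 410, 439 and 363 CPM in laminin 511-E8 libraries, and 364, 324 and 369 CPM in control libraries. RPL39 was higher in all acetazolamide libraries than in any control library, whereas RPL39L overlapped. RPL3 had 981, 759 and 1156 CPM in acetazolamide libraries, 914, 1128 and 850 CPM in laminin 511-E8 libraries, and 908, 795 and 980 CPM in control libraries. Like the stalk genes, RPL3 was highest in acetazolamide library 3 and laminin 511-E8 library 2.

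RPL22, which the study used as a protein present in all pull-downs, is an RNA-binding protein of the large subunit. RPL22 had 60.4, 69.9 and 39.5 CPM in acetazolamide libraries, 67.0, 49.1 and 61.1 CPM in laminin 511-E8 libraries, and 65.9, 51.2 and 67.5 CPM in control libraries. RPL22L1 had 192, 227 and 132 CPM in acetazolamide libraries, 229, 172 and 197 CPM in laminin 511-E8 libraries, and 201, 144 and 166 CPM in control libraries. The lowest value of both genes was in acetazolamide library 3, and the groups overlapped. Pseudogenes named after RPL22 held 28.4% of the joint counts. The fitted log2 fold change of RPL22 was -0.17 ± 0.22 for acetazolamide and -0.08 ± 0.22 for laminin 511-E8 against control (SE, unadjusted p = 0.45 and 0.726).

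The stalk proteins P0, P1 and P2 recruit the factors that drive elongation, and RPLP0 was a reference gene for RT-qPCR in the study. RPLP0 had 754, 497 and 870 CPM in acetazolamide libraries, 618, 852 and 568 CPM in laminin 511-E8 libraries, and 635, 535 and 794 CPM in control libraries. RPLP1 had 299, 231 and 355 CPM in acetazolamide libraries, 258, 360 and 227 CPM in laminin 511-E8 libraries, and 241, 227 and 326 CPM in control libraries. RPLP2 had 164, 143 and 198 CPM in acetazolamide libraries, 147, 202 and 130 CPM in laminin 511-E8 libraries, and 150, 130 and 174 CPM in control libraries. In each of the 3 genes the highest values were those of acetazolamide library 3 and laminin 511-E8 library 2, with control library 3 next, and the groups overlapped. The fitted log2 fold changes of RPLP0 were 0.05 ± 0.21 for acetazolamide and 0.03 ± 0.21 for laminin 511-E8 against control (SE, unadjusted p = 0.803 and 0.897).

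Summed over the 83 genes, the counts reached 39747, 35539 and 41900 CPM in acetazolamide libraries, 37764, 42866 and 35337 CPM in laminin 511-E8 libraries, and 35930, 34049 and 35927 CPM in control libraries. The treated groups averaged 39062 ± 3236 CPM (acetazolamide) and 38656 ± 3843 CPM (laminin 511-E8), and the control group 35302 ± 1085 CPM (SD, n = 3 each). Each treated group had 1 library inside the range of the control libraries, acetazolamide library 2 and laminin 511-E8 library 3. Without mitochondrial counts in the total, the control libraries came closer together, at 40221 ± 385.2 CPM, against 43748 ± 4175 CPM in acetazolamide libraries and 43636 ± 4273 CPM in laminin 511-E8 libraries.

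Whether either treatment changed the level of ribosomal protein mRNAs was asked gene by gene, with edgeR's quasi-likelihood test over all 15997 genes. In acetazolamide against control 0 of the 77 genes passed an adjusted p of 0.05, and so did 0% of all genes. DESeq2 also called 0 of the 77, against 0.0438% of all genes. At an unadjusted p under 0.05 there were 3 members, all higher, against 1.83% of all genes. They were RPS10, RPL35A and RPL37A, with log2 fold changes of 0.50 ± 0.17, 0.21 ± 0.09 and 0.25 ± 0.11 (SE, unadjusted p = 0.0145, 0.0447 and 0.0456, adjusted p = 1.00 for each, edgeR quasi-likelihood test). RPL37A had 700, 704 and 746 CPM in acetazolamide libraries, 645, 752 and 604 CPM in laminin 511-E8 libraries, and 615, 594 and 513 CPM in control libraries. RPS10 was far less abundant, with 5.97, 7.68 and 6.73 CPM in acetazolamide libraries, 6.58, 6.06 and 5.64 CPM in laminin 511-E8 libraries, and 5.23, 4.12 and 4.23 CPM in control libraries. In both genes every acetazolamide library lay above every control library. The counts of RPS10 are uncertain as described, since pseudogenes named after it held 48.1% of the joint counts.

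The fitted log2 fold changes of acetazolamide against control ran from -0.31 to 0.50 over the 77 genes with a median of 0.10, against 0.00 over all genes. They were above 0 for 62 of 77 genes, against 51% of all genes. The ends of the range were RPL7A and RPS10, which had under 10 CPM in every library and uncertain counts as described. The median was 0.059 without control library 3 (52 of 77 above 0), 0.064 without acetazolamide library 3 (53 of 77) and 0.066 without control library 1 (56 of 77). Counted on TMM-scaled log2 CPM, which can order close libraries otherwise than the CPM printed here, the 3 acetazolamide libraries lay above the 3 control libraries without overlap for 11 genes (RPL10A, RPL19, RPL27, RPL30, RPL35A, RPL37, RPL37A, RPL39, RPS10, RPS14 and RPS21), where the same held for 3.21% of all genes, and below them for 0 genes, where 2.1% of all genes did. Among genes with at least 10 CPM the highest values were those of RPS29, RPS21 and RPL10, and the lowest those of RPL41, RPL22 and RPL15.

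RPS29, a zinc-binding protein of the small subunit, had 140, 162 and 179 CPM in acetazolamide libraries, 140, 184 and 114 CPM in laminin 511-E8 libraries, and 137, 78.9 and 159 CPM in control libraries. RPS21, also of the small subunit, had 236, 256 and 274 CPM in acetazolamide libraries, 215, 274 and 182 CPM in laminin 511-E8 libraries, and 227, 154 and 230 CPM in control libraries. RPL10, which helps to form the site where transfer RNA binds in the large subunit, had 662, 586 and 712 CPM in acetazolamide libraries, 573, 718 and 469 CPM in laminin 511-E8 libraries, and 566, 360 and 657 CPM in control libraries. In these 3 genes control library 2 was the lowest of the 9, and it was also the library with the highest mitochondrial share. Its part in the fitted changes was not tested for single genes. The fitted log2 fold changes of acetazolamide against control were 0.31 ± 0.23 for RPS29, 0.27 ± 0.16 for RPS21 and 0.26 ± 0.19 for RPL10 (SE).

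RPL41, the shortest ribosomal protein, had 304, 158 and 214 CPM in acetazolamide libraries, 239, 274 and 280 CPM in laminin 511-E8 libraries, and 229, 269 and 249 CPM in control libraries. Its log2 fold change was -0.21 ± 0.20 for acetazolamide against control and 0.27 ± 0.20 for laminin 511-E8 against acetazolamide (SE, unadjusted p = 0.326 and 0.22), with acetazolamide library 2 the lowest of all. RPL15 had 844, 741 and 830 CPM in acetazolamide libraries, 800, 876 and 764 CPM in laminin 511-E8 libraries, and 804, 752 and 887 CPM in control libraries, a log2 fold change of -0.08 ± 0.09 for acetazolamide.

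In laminin 511-E8 against control 0 of the 77 genes passed by edgeR, as did 0% of all genes, and DESeq2 called 0, against 0.131% of all genes. At an unadjusted p under 0.05 there was 1 member, against 2.84% of all genes. This was RPL30, of the large subunit, with 649, 614 and 660 CPM in acetazolamide libraries, 648, 728 and 625 CPM in laminin 511-E8 libraries, and 591, 559 and 540 CPM in control libraries. All 6 treated libraries lay above the 3 control libraries. The log2 fold change of RPL30 was 0.21 ± 0.09 for laminin 511-E8 (SE, unadjusted p = 0.0383, adjusted p = 1.00, edgeR) and 0.12 ± 0.09 for acetazolamide (unadjusted p = 0.198).

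The fitted log2 fold changes of laminin 511-E8 against control ran from -0.33 to 0.37, with a median of 0.11, against -0.00 over all genes. They were above 0 for 71 of 77 genes, against 49.2% of all genes. The ends of the range were again RPL7A and RPS10. Counted on TMM-scaled log2 CPM, the laminin libraries lay above the control libraries without overlap for 12 genes, where the same held for 4.69% of all genes. These were RPL10A, RPL19, RPL23, RPL30, RPL35A, RPL36A, RPL37, RPL38, RPL39, RPS4X, RPS7 and RPS10. In CPM the groups overlapped for some of them, among them RPL10A, RPL19 and RPL39. On the TMM scale the laminin libraries lay below the control libraries for 0 genes, where 3.96% of all genes did. Without laminin 511-E8 library 2 the median was 0.033 (52 of 77 above 0). The lowest of the genes with at least 10 CPM were RPL22, RPS27L and RPL39L, at -0.08, -0.05 and -0.05.

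RPL36A had 14.3, 18.6 and 12.2 CPM in acetazolamide libraries, 17.8, 14.2 and 17.2 CPM in laminin 511-E8 libraries, and 13.0, 12.5 and 12.8 CPM in control libraries. RPL17 had 10.8, 12.8 and 10.9 CPM in acetazolamide libraries, 11.7, 12.6 and 11.6 CPM in laminin 511-E8 libraries, and 8.12, 12.8 and 7.50 CPM in control libraries. These were the highest fitted values for laminin 511-E8 among genes of at least 10 CPM, 0.34 ± 0.18 and 0.30 ± 0.22 on the log2 scale (SE), in genes whose counts are shared uncertainly with pseudogenes. RPL35A, which is mutated in some patients with Diamond-Blackfan anaemia, had 775, 801 and 781 CPM in acetazolamide libraries, 768, 835 and 685 CPM in laminin 511-E8 libraries, and 684, 634 and 639 CPM in control libraries. Every treated library lay above every control library for RPL35A. Both comparisons share the 3 control libraries, so a low control library enters both.

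In laminin 511-E8 against acetazolamide 0 of the 77 genes passed by edgeR, as did 0% of all genes, and DESeq2 called 0, against 0.119% of all genes. At an unadjusted p under 0.05 there were 0 members, against 2.34% of all genes, and 41 of 77 had a fold change above 0, against 50.8% of all genes. The median log2 fold change was 0.01. On TMM-scaled log2 CPM the laminin libraries were all above the acetazolamide libraries for 4 genes, RPL7L1, RPL23, RPL30 and RPL38 (3.01% of all genes). In CPM the groups overlapped in each of these 4 genes. On the TMM scale the laminin libraries were all below the acetazolamide libraries for 0 genes (3.11% of all genes). The highest fitted values were those of RPL41, RPS26 (0.21 ± 0.17) and RPL22L1 (0.15 ± 0.21), and the lowest those of RPS21 (-0.16 ± 0.16), RPS19 (-0.14 ± 0.17) and RPL10 (-0.13 ± 0.19), in log2 with SE. RPS26 had 91.8, 69.1 and 100 CPM in acetazolamide libraries, 75.3, 121 and 98.5 CPM in laminin 511-E8 libraries, and 85.0, 80.5 and 93.5 CPM in control libraries. RPS19 had 281, 251 and 336 CPM in acetazolamide libraries, 231, 333 and 206 CPM in laminin 511-E8 libraries, and 249, 196 and 275 CPM in control libraries. The groups overlapped in both genes.

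By class, the median log2 fold change in acetazolamide against control was 0.10 for the large subunit, 0.12 for the small subunit, 0.10 for the stalk and -0.03 for the 5 copies that passed the filter. In laminin 511-E8 against control it was 0.11, 0.12, 0.05 and 0.01. Members whose start carries the pyrimidine motif had a median of 0.10 (43 genes) and members without it 0.11 (19 genes) in acetazolamide against control, and 0.11 and 0.12 in laminin 511-E8 against control.

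The libraries differed in a trend with GC content. In each library the log2 level of a gene relative to its mean over all 9 was regressed on the GC content of its transcript, over 15660 tested genes that are not members. The slope, in log2 units for 10 percentage points of GC, was 0.08, -0.26 and 0.35 in acetazolamide libraries, -0.13, 0.23 and -0.15 in laminin 511-E8 libraries, and -0.11, -0.08 and 0.07 in control libraries. The slopes overlapped between groups and varied more among treated libraries than among control libraries. Among the 77 members themselves, whose GC content ran from 39.3% to 63.6%, the slope was 0.05, -0.20 and 0.24 in acetazolamide libraries, -0.13, 0.16 and -0.13 in laminin 511-E8 libraries, and -0.07, -0.06 and 0.14 in control libraries. Over the 9 libraries the slope of the members and that of the other genes had a Pearson r of 0.98, with library and depth shared.

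**Figure D1:**
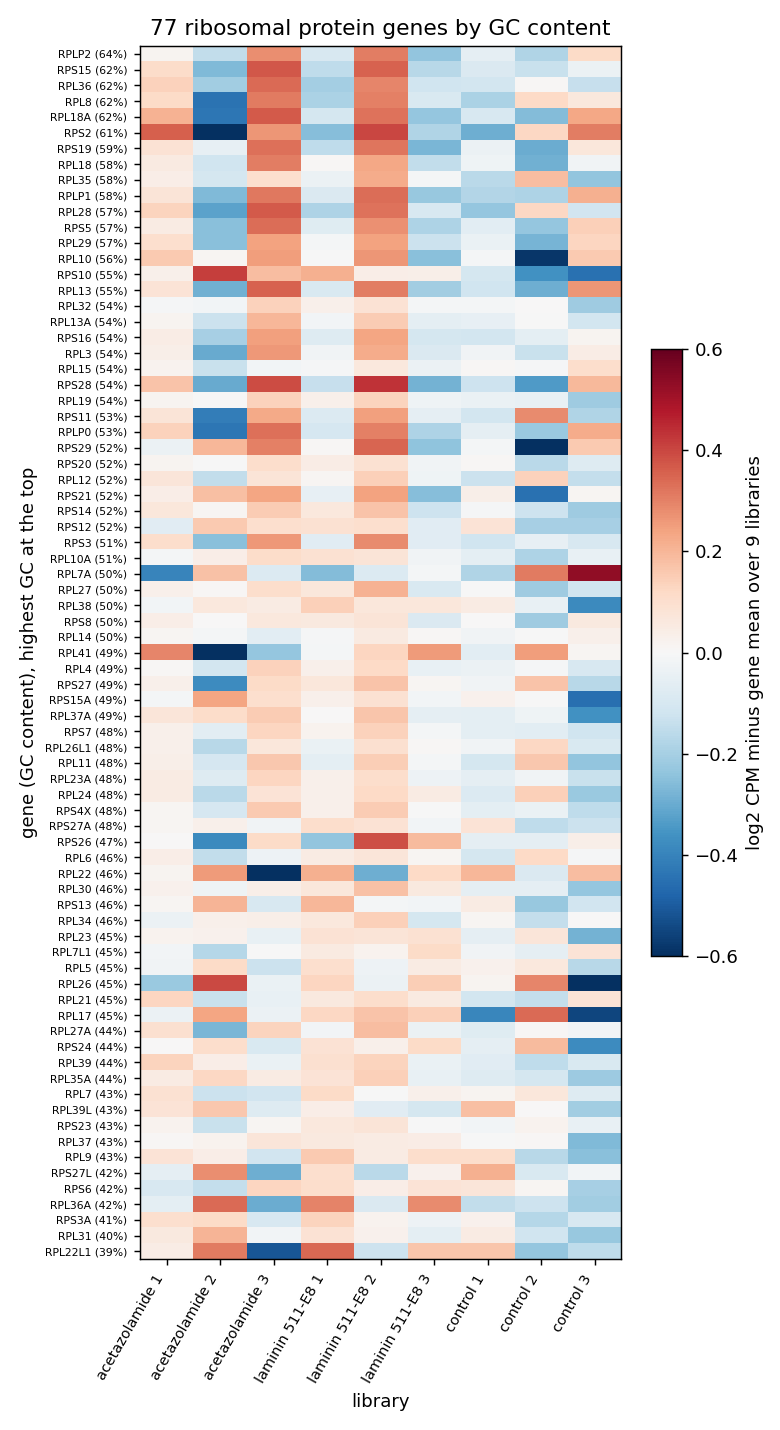
Log2 CPM of 77 ribosomal protein genes (rows, ordered by GC content with the highest at the top) in the 9 libraries (columns), minus the mean of each gene. In the upper rows acetazolamide library 3 and laminin 511-E8 library 2 are mostly red and acetazolamide library 2 mostly blue, and the lowest row, RPL22L1, has blue for acetazolamide library 3.

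The 25 members with the highest GC content, 52.7% or more, had a mean log2 deviation of 0.09, -0.22 and 0.27 in acetazolamide libraries, -0.07, 0.26 and -0.13 in laminin 511-E8 libraries, and -0.09, -0.12 and 0.02 in control libraries. Other genes in the same range of GC content had 0.07, -0.22 and 0.29, then -0.12, 0.20 and -0.12, then -0.07, -0.07 and 0.04 in the same libraries. The GC-rich ribosomal protein genes and the other genes of that range deviated in the same direction in all 9 libraries. The 26 members with the lowest GC content, up to 45.9%, had 0.02, 0.07 and -0.09 in acetazolamide libraries, 0.11, 0.03 and 0.05 in laminin 511-E8 libraries, and -0.00, -0.03 and -0.16 in control libraries. Other genes in that range had -0.05, 0.19 and -0.24, then 0.09, -0.16 and 0.11, then 0.09, 0.04 and -0.08 in the same libraries. The GC-poor members deviated less than the other genes in acetazolamide libraries 2 and 3 and laminin 511-E8 library 3. They deviated more in laminin 511-E8 library 1 and control library 3. In acetazolamide library 1, laminin 511-E8 library 2 and control libraries 1 and 2 the direction was opposite. The 26 members between these groups had 0.02, -0.05 and 0.10 in acetazolamide libraries, 0.01, 0.14 and -0.02 in laminin 511-E8 libraries, and -0.03, -0.06 and -0.10 in control libraries. Other genes of that middle range had -0.00, 0.01 and 0.03, then 0.00, 0.02 and 0.01, then 0.01, -0.01 and -0.07. The GC-poor and middle members thus departed from other genes of like GC content. Both groups were lower than those genes in every control library, acetazolamide library 2 and laminin 511-E8 library 3. They were higher than those genes in acetazolamide libraries 1 and 3 and laminin 511-E8 libraries 1 and 2. The GC-rich members were likewise lower than other genes of their range in every control library and laminin 511-E8 library 3. They were also lower in acetazolamide library 3. In acetazolamide libraries 1 and 2 and laminin 511-E8 libraries 1 and 2 the GC-rich members were higher.

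The mean level of the GC-rich group went with the GC slope over the 9 libraries (Pearson r = 0.98, Spearman rho = 0.93), and that of the GC-poor group went the other way (r = -0.55, rho = -0.63). Single members had a median r of 0.88 with the slope in the GC-rich group, 0.49 in the middle group and -0.25 in the GC-poor group. Over all members r exceeded 0.7 for 21 genes and was below -0.7 for 5. The share of other genes beyond these limits is not given, so these counts do not set the members apart. For the mean of all 77 members r was 0.75 and rho 0.52. Without the 2 libraries farthest from the median slope, acetazolamide library 3 and laminin 511-E8 library 2, r was 0.24 and rho 0. Over the 6 treated libraries alone r was 0.91 and rho 0.94, and with group means taken off both measures r was 0.88 and rho 0.83. The relation of the overall mean was thus weak without those libraries, which are both treated. With total counts in place of the slope r was -0.06 and rho 0.17, and with the mitochondrial share r was -0.05 and rho 0.30. The labels give no batch.

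The GC-richest members were RPLP2, RPS15 and RPL36. RPS15, of the small subunit, had 240, 181 and 291 CPM in acetazolamide libraries, 194, 287 and 187 CPM in laminin 511-E8 libraries, and 201, 185 and 216 CPM in control libraries. RPL36, of the large subunit, had 257, 198 and 298 CPM in acetazolamide libraries, 196, 288 and 202 CPM in laminin 511-E8 libraries, and 208, 213 and 211 CPM in control libraries. As with the stalk genes, acetazolamide library 3 and laminin 511-E8 library 2 were highest. The r with the GC slope was 0.97 for RPS15, 0.90 for RPL36 and 0.92 for RPLP2.

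The GC-poorest members were RPL22L1, RPL31 and RPS3A. RPL31, near the exit of the peptide tunnel, had 618, 672 and 593 CPM in acetazolamide libraries, 612, 610 and 538 CPM in laminin 511-E8 libraries, and 591, 498 and 505 CPM in control libraries. RPS3A, of the small subunit, had 1072, 1058 and 943 CPM in acetazolamide libraries, 1060, 1021 and 922 CPM in laminin 511-E8 libraries, and 978, 806 and 926 CPM in control libraries. Here acetazolamide library 3 was the lowest of its group, in contrast to the GC-rich members. The r with the slope was -0.83 for RPL22L1, -0.32 for RPL31 and -0.35 for RPS3A. It was 0.94 for RPLP0 and -0.86 for RPL22, which lay on opposite sides. The study used RPLP0, together with HPRT, as a reference in sham and knockdown cells, and RPL22 as a protein in pull-downs. Neither use was measured in these libraries.

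Between these extremes RPL14, chosen after its values were seen, had 445 to 465 CPM in acetazolamide libraries, 436 to 483 CPM in laminin 511-E8 libraries and 420 to 467 CPM in control libraries. The SD of its log2 level over the 9 libraries was 0.033, where the median member had 0.142 and the median tested gene 0.258.

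With the GC trend of each library removed, the trend being estimated without the members, 0 of the 77 genes passed in any comparison. Of all 15737 genes with a GC content, 0% passed in acetazolamide against control, 0.222% in laminin 511-E8 against control and 0.114% in laminin 511-E8 against acetazolamide. The unadjusted p was under 0.05 for 5 members (3.98% of all genes), 3 members (6.88%) and 0 members (4.75%) in the same order of comparisons. The median log2 fold change of the members was 0.06, 0.07 and 0.03, against -0.02, -0.01 and 0.01 over all genes. It was above 0 for 58 of 77 members in acetazolamide against control (44.5% of all genes), 67 in laminin 511-E8 against control (47.3%) and 52 in laminin 511-E8 against acetazolamide (53.3%). Of the 5 and 3 members with an unadjusted p under 0.05, 3 in each comparison were among the 26 with the lowest GC content. Removal made the SD of the log2 level over the 9 libraries smaller in 48 of the 77 members. It was larger in others, among them RPL31 (0.125 to 0.224) and RPL27A (0.134 to 0.227), both in the GC-poor group. The share of all tested genes with a smaller SD is not given here. The median SD went from 0.142 to 0.130 in members, against 0.258 to 0.167 in all tested genes. The mean member level still had an r of 0.75 with the GC slope after removal.

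Related gene groups were counted from lists chosen by function. RACK1, a scaffold protein on the small subunit, had 1042, 845 and 1287 CPM in acetazolamide libraries, 909, 1230 and 830 CPM in laminin 511-E8 libraries, and 915, 771 and 1025 CPM in control libraries. Like RPLP0 it was highest in acetazolamide library 3 and laminin 511-E8 library 2. Among 15 tested genes of other translation factors and associated proteins with terminal oligopyrimidine mRNAs, such as EEF1A1 and TPT1, 0 passed. Their median log2 fold changes were -0.07 in acetazolamide and 0.00 in laminin 511-E8 against control, the order used for the next lists. Of 25 ribosome assembly genes 0 passed, with medians of -0.04 and 0.09. Of 15 genes that control ribosomal protein synthesis 0 passed, with medians of 0.07 and 0.04. Of 74 tested mitochondrial ribosomal protein genes 0 passed, with medians of 0.04 and 0.05.

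With the GC trend removed, 1 gene of these 4 lists passed, in laminin 511-E8 against control. This was MYC, a transcription factor that drives ribosomal protein genes in many cells, with 102, 81.5 and 108 CPM in acetazolamide libraries, 99.5, 120 and 99.2 CPM in laminin 511-E8 libraries, and 65.8, 65.3 and 74.9 CPM in control libraries. All 6 treated libraries lay above the control libraries for MYC.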

How the data were processed

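Raw whole-number counts for each gene were deposited by the authors for 9 libraries. The submitters' processing notes name HISAT2 2.2.1, HTSeq 0.11.0, Trimmomatic 0.39 and FastQC 0.11.9, with the build GRCh38. Which annotation release and strand setting were used, and how reads matching several places were handled, is not given in the sources used here. A gene name table named 61369 of 61541 genes and GENCODE release 29 a further 159. That release also gave coordinates, overlaps, length and GC content (58312 genes). 1 transcript stood for each gene, for protein-coding genes the one nearest the median length of its basic coding transcripts. Starts are from RefSeq.

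The members, the gene lists and the tests were chosen with earlier results of these data known. edgeR 4.0.16 (under R 4.3.3) fitted all 9 libraries together by robust quasi-likelihood after filterByExpr and TMM scaling, and p-values were adjusted by Benjamini-Hochberg over all genes. They measure the spread between 3 libraries a group. The study's methods state no test for these libraries. Log2 CPM used a prior count of 2. The GC trend was a local regression with span 0.3. Alternatives used DESeq2 1.42.0 and limma 3.58.1, other scalings and filters, a replicate block, added pseudogene counts and leaving out each library. The tests were tried on simulated data with known folds. Levels and plots were made with matplotlib 3.10.9, SciPy 1.17.1, pandas 2.3.3 and Python 3.11.15. Named genes were the 5 highest and 5 lowest in control TPM, the copies with their partners, RPL22 and the stalk genes, the 3 highest and 3 lowest fitted changes of each comparison at 10 CPM or more, and the 3 highest and 3 lowest in GC content. Others named were chosen after their values were seen. Libraries of a group differed by more than counting error in every pair (chi-square of counts over genes, at least 4.77 for each degree of freedom). The values of some genes are not reported here.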

Additional observations from a re-analysis of the deposited data

How the results depend on the processing

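In each of the 3 comparisons 0 ribosomal protein genes were called under all 21 alternatives, and the lowest adjusted p of a member over these settings was 0.481, 0.267 and 0.614 (acetazolamide against control, laminin 511-E8 against control, laminin 511-E8 against acetazolamide). The median log2 fold change ranged over the settings other than left-out libraries from 0.06 to 0.15, from 0.07 to 0.13 and from -0.02 to 0.03, and over the left-out libraries from 0.06 to 0.14, from 0.03 to 0.16 and from -0.04 to 0.06. The low end for acetazolamide against control was without control library 3, and that for laminin 511-E8 against control was 0.033, without laminin 511-E8 library 2. The summed level was 43748 CPM in acetazolamide libraries, 43636 CPM in laminin 511-E8 libraries and 40221 CPM in control libraries when mitochondrial counts were left out of the total, and 41784, 41455 and 37790 CPM in the same order of groups with pseudogene counts added. Without single libraries it ranged from 37643 to 40824, from 36551 to 40315 and from 34988 to 35929 CPM in the same order of groups. The r of the mean member level with the GC slope stayed between 0.67 and 0.78 under 3 other settings and between 0.68 and 0.88 without single libraries. With the replicate block the medians were 0.10, 0.11 and 0.01 and 0 members were called, and with the GC trend removed as well 0.06, 0.07 and 0.03. The replicate numbers are not shown to pair the samples: the deviations of same-numbered libraries had an r over genes from -0.65 to 0.24, over 0.1 in 2 of 9 pairs. The cause of these dependences was not tested.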
